A study of Homo sapiens with 2 samples.

Results

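Replication origin licensing and firing factors were followed in HepG2 cells as 10 genes, ORC1, ORC2, ORC6, CDC6, CDT1, GMNN, CDC45, GINS1, GINS2, and CDC7, chosen by name as factors that load the replicative helicase at origins or switch it on. Every array probe whose RefSeq transcript belongs to one of these genes was taken, which gave 11 probes of the 29680 probes kept after the filter on dim probes, and 10 of the 23752 genes and unnamed transcripts. HepG2 cells are a long-established line from a human liver carcinoma. One culture received the solvent dimethyl sulfoxide (DMSO, 1‰) and one received hawk tea extract (HTE), an ethanol extract of hawk tea leaves dissolved in DMSO, both for 24 h. The dose of HTE is 300 μg per mL in the published description of the array experiment and in the name of the deposited array, whereas the sample labels give 200 μg per mL. RNA of each culture was hybridised to 1 Agilent 1-colour (Cy3) array, with 62976 spots. There are no replicate cultures, so no test between DMSO and HTE was possible and no p-value is given, and treatment, culture and array cannot be told apart.

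Before a cell copies its DNA, the origin recognition complex (ORC) sits on each origin, and CDC6 and CDT1 join it to load the ring-shaped MCM helicase in an inactive form, a step called licensing. Geminin, the product of GMNN, binds CDT1 and blocks further loading once S phase has begun, so that each origin fires only once per cycle. CDC7, the kinase that works with DBF4, and the cyclin-dependent kinases (CDKs) then switch the helicase on by bringing CDC45 and the GINS complex to it. Transcription of many of these genes is tied to the cell cycle through the E2F factors, whereas some ORC subunits are known to be made at a steadier rate.

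All 10 genes were lower on the HTE array than on the DMSO array, as were 49.0% of all measured genes. The median log2 ratio of HTE over DMSO was -1.01 over the 10 genes, a 2.02-fold lower signal, against a median of 0.0 over all 23752 genes. All genes here include 1272 dim ones that were set to 0 and so could not count as lower. CDC6, GINS1, ORC1, CDC45, and ORC6 were at least 2-fold lower, which is 5 of the 10, where 3.03% of all genes were. GINS2 and CDT1 were between 1.5-fold and 2-fold lower, and ORC2, GMNN, and CDC7 were less than 1.5-fold lower. In RNA from a whole culture, fewer cells in S phase and less of these transcripts per cell cannot be told apart. At the dose of the published description, the paper also reports lower cell viability under HTE, an effect it calls slight and tolerable. Whether lower viability has a part in the ratios of the 10 genes was not tested.

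Values are the processed signal of a spot, a brightness already corrected for background by the scanner software, and were compared on the log2 scale after subtracting the 75th percentile of each array. That percentile was a signal of 4020.0 on the DMSO array and 3570.3 on the HTE array. Of the spots that are not controls, the software called 60.6% well above background for DMSO and 56.6% for HTE, no spot was saturated, and all 11 probes of the 10 genes were well above background on both arrays with none of their 29 spots flagged as an outlier. Each probe had 1 spot per array except those of ORC6 and GINS2, which had 10. The scanner software's own error estimate, combined over both arrays, was 0.20 to 0.25 on the log2 ratio for every probe of the 10 genes, while the SD of the log2 ratio among replicate spots was 0.05 (median of 688 probes with at least 5 spots). Neither error includes the variation between cultures. All 11 markers of hepatocytes were well above background on both arrays and lay within 2-fold, from FGB (log2 ratio of -0.36) to APOA2 (0.21). Of 11 markers of leukocytes, endothelium, fibroblasts and red cells, 5 were well above background, from PECAM1 (-1.82) to CD68 (0.46), with a summed signal of 7929 on the DMSO array and 7934 on the HTE array, and CD3E, LYZ, CDH5, COL1A2, DCN, and HBB had no named probe above background on either array.

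**Figure D1:**
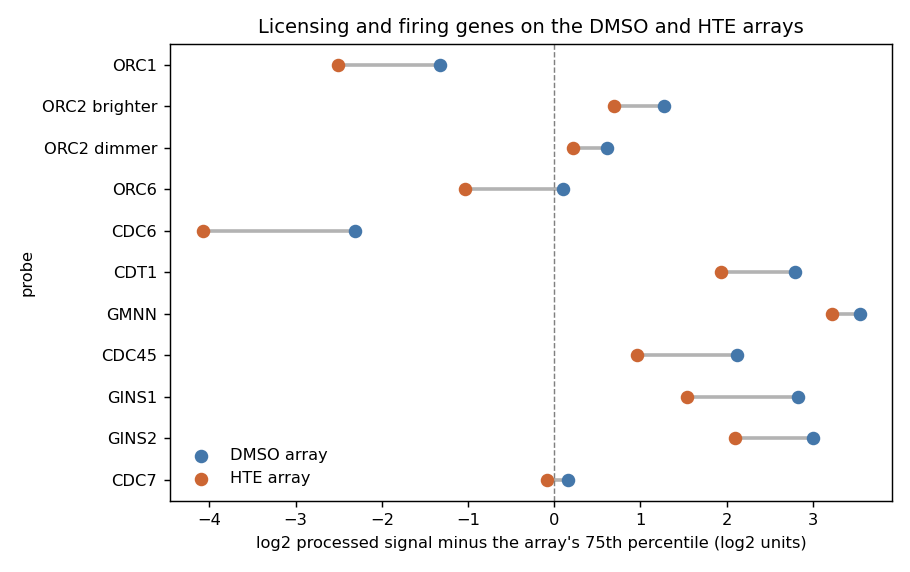
Log2 processed signal minus the array's 75th percentile (x axis, log2 units) for each probe of the 10 genes (y axis), with 1 point for the DMSO array and 1 for the HTE array, joined by a line. The HTE point lies to the left of the DMSO point for all 11 probes, with the longest line at CDC6 and the shortest at CDC7. Signals of different probes are not comparable with each other.

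The origin recognition complex was uneven. ORC1, the subunit with the ATPase activity that helicase loading needs, had a signal of 1604 on the DMSO array and 629 on the HTE array, a log2 ratio of -1.18 with a software error of 0.21. The HTE signal was 44.2% of the DMSO signal after scaling, and 1.69% of all genes had a lower ratio. ORC6, the small subunit that takes part in MCM loading, had 10 spots between 4142 and 4466 on the DMSO array (median 4316), and between 1644 and 1856 on the HTE array (median 1741). The 2 sets of spots did not overlap, and the log2 ratio was -1.13 with an SD of 0.06 among the 10 spots. These spots share 1 RNA sample per array, and how often the spots of other probes do not overlap was not counted. ORC2, a core subunit, had 2 probes for the same transcript. The brighter probe went from 9736 to 5781 (log2 ratio of -0.58) and the dimmer probe from 6148 to 4152 (-0.40), and both were lower on the HTE array. The median SD of the log2 ratio among probes of one gene was 0.16 over 3759 genes with several probes.

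The remaining ORC subunits were listed as part of the pathway and are not among the 10. ORC5 had a log2 ratio of -0.63 (its dimmer probe -0.53), ORC3 -0.26, ORC4 0.04 (its dimmer probe -0.35, and both below 0 without scaling), and LRWD1, a protein that associates with ORC on chromatin, -0.02. None of these 4 genes passed 2-fold, and their median was -0.14. The gap between ORC1 and ORC2 was 0.60 on the log2 scale and that between ORC1 and ORC4 was 1.22, each with a combined software error of 0.29. The gap between ORC6 and ORC2 was 0.55 with the same error. At their brightest probes the ORC subunits had log2 ratios from -1.18 to 0.04 on these 2 arrays.

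**Figure D2:**
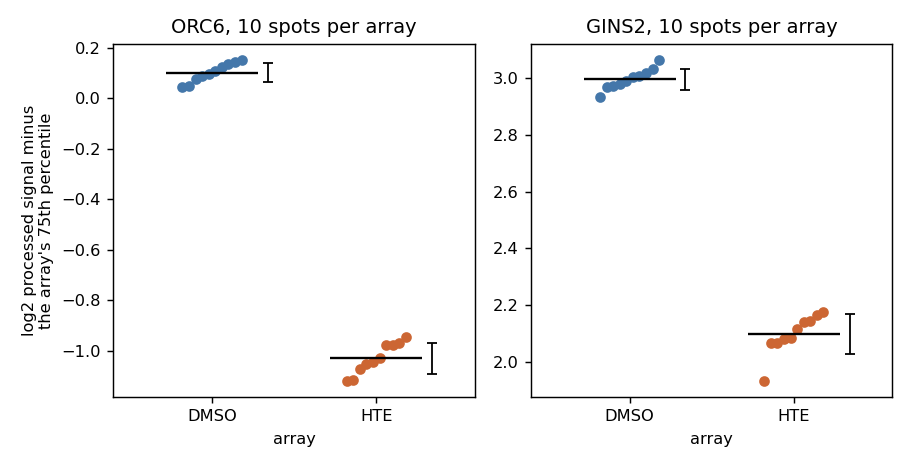
Log2 processed signal minus the array's 75th percentile (y axis) of the 10 replicate spots of ORC6 (left) and of GINS2 (right) on the DMSO and the HTE array. Points are spots, horizontal lines their mean and bars 1 SD, and for both genes every HTE spot lies below every DMSO spot. The spots share 1 RNA sample per array and are not biological replicates.

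CDC6, the ATPase that joins ORC to load MCM and is destroyed or exported once origins have fired, was the most different of the 10. Its single spot had a signal of 812 on the DMSO array and 212 on the HTE array, against local backgrounds of 27 and 26. The log2 ratio was -1.77 with a software error of 0.25, a 3.41-fold lower signal, and only 81 of the 23752 genes had a lower ratio. Of the 10 genes CDC6 moved most under another background treatment, to -1.38 with normexp correction, which models the background of each spot, and it was still past 2-fold.

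CDT1, which carries MCM to ORC, and its inhibitor geminin differed from each other. CDT1 went from 27924 on the DMSO array to 13589 on the HTE array, a log2 ratio of -0.87 with an error of 0.20. GMNN went from 46801 to 33312, a log2 ratio of -0.32 with the same error, so that 80.1% of the DMSO signal was left after scaling compared with 54.8% for CDT1. The ratio of GMNN was 1.57 times its software error and 22.5% of all genes were lower. The gap between CDT1 and GMNN was 0.55 on the log2 scale, with a combined error of 0.29.

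The helicase activators had lower ratios than CDC7, the kinase that helps to recruit them. CDC45, which becomes part of the active helicase, had a signal of 17410 on the DMSO array and 6940 on the HTE array (log2 ratio of -1.16, error of 0.20). GINS1, one subunit of the GINS complex, went from 28620 to 10349 (-1.30, error of 0.20), the second lowest ratio of the 10. GINS2, another subunit, was measured by 10 spots, which lay between 30708 and 33588 on the DMSO array (median 32039) and between 13649 and 16126 on the HTE array (median 15314). These spots did not overlap either, with the same limit as for ORC6, and the log2 ratio was -0.90 with an SD of 0.07 among them. The gap between GINS1 and GINS2 was 0.40, with a combined software error of 0.29 (1 SD). GINS3 and GINS4, the other subunits of the complex, had log2 ratios of -0.83 and -0.94, so all 4 subunits were lower on the HTE array.

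CDC7 had the smallest difference of the 10, from 4500 on the DMSO array to 3372 on the HTE array. Its log2 ratio of -0.25 was 1.20 times the software error of 0.20, and 27.5% of all genes had a lower ratio. DBF4, the subunit that activates the CDC7 kinase, had a log2 ratio of -0.86 at its brighter probe and -0.52 at its dimmer probe. DBF4B, a second partner of CDC7, was dim and had -1.19. The gap between CDC7 and the brighter DBF4 probe was 0.62, with a combined error of 0.29. In order from the lowest ratio the genes were CDC6, GINS1, ORC1, CDC45, ORC6, GINS2, CDT1, ORC2, GMNN, and CDC7. Of the 9 neighbouring pairs in this order, 8 differed by less than their combined software error, and the exception was CDC6, which was 0.47 below GINS1 with an error of 0.32.

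**Figure D3:**
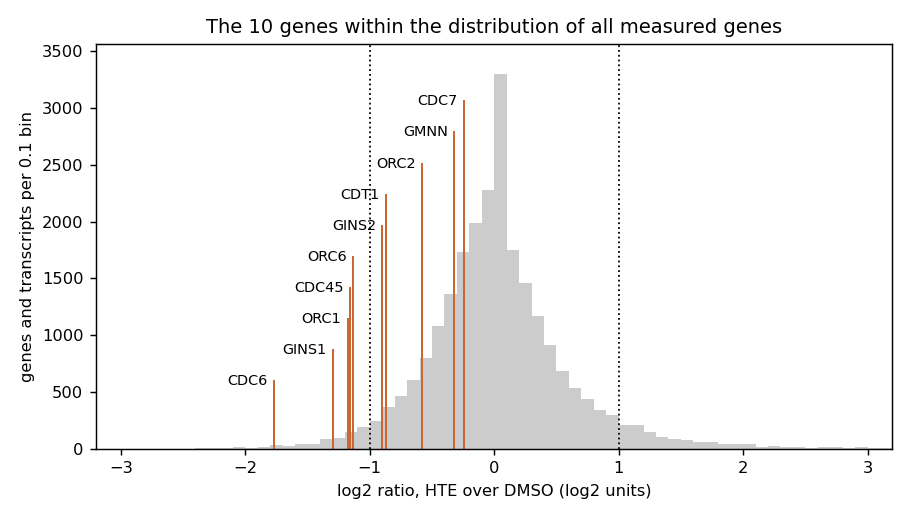
Number of genes and unnamed transcripts (y axis) per bin of 0.1 in the log2 ratio of HTE over DMSO (x axis), with the 10 genes marked by lines whose heights only separate the names and dotted lines at 2-fold. The 10 genes lie between -1.77 (CDC6) and -0.25 (CDC7), all left of 0. The tall bin from 0 to 0.1 includes 1272 dim genes seen on 1 array only, whose bound was under 1-fold and was set to 0.

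The other genes of origin licensing, firing and the fork were taken from lists by role. The 26 genes outside the 10 (other ORC genes, MCM2-7, other GINS and kinase partners, firing partners and fork factors) were all measured, 25 of them were lower on the HTE array, 8 at least 2-fold, and none was 2-fold higher. Their median log2 ratio was -0.85. The MCM helicase subunits, the load that licensing puts on origins, were all lower, 3 of the 6 at least 2-fold, from MCM2 (-1.44), MCM5 (-1.31), and MCM4 (-1.26) to MCM7 (-0.61). Their median of -1.07 stood beside -1.01 for the 10 genes, and no test of that difference was possible. Among the firing and helicase loading partners, MTBP (-1.16) and TICRR (-1.14), which act together, and DONSON (-1.09) were past 2-fold. All 8 genes of that list were lower, up to MCMBP (-0.48). Of the fork factors, CLSPN, which carries the checkpoint signal at the fork, had -1.28, and RIF1, which counters CDC7 at origins, had -0.33.

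The genes that set when origins fire or how long the licensing factors last were more mixed. On the CDK side 7 of 8 genes were lower, with CCNA2 (-1.73), CCNE2 (-1.05), and CDC25A (-1.02) past 2-fold, and CDKN1A, which encodes the CDK inhibitor p21, was the only one higher (0.83, and below 0 with spike-in scaling). CCNA2 encodes the cyclin A that drives CDK activity in S phase. Of the genes that control the destruction of CDT1, CDC6, or geminin, 7 of the 8 measured were lower. DTL (-1.44) and SKP2 (-1.35), which both send CDT1 to the proteasome, were at least 2-fold lower. CUL4A (-0.01, and 0.21 at its dimmer probe) and DDB1 (-0.12), ligase subunits that act with DTL, lay near 0. FBXO5 (-1.14), an inhibitor of the ligase that destroys geminin, was also at least 2-fold lower. FZR1, an activator of the ligase that FBXO5 inhibits, was higher (0.47, and below 0 with spike-in scaling). The replicative polymerases had 10 of 12 genes lower and a median of -0.78, from POLE2 (-1.25), POLD3 (-1.17), and POLD1 (-1.02) to POLD4, which was 2-fold higher (1.32).

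**Figure D4:**
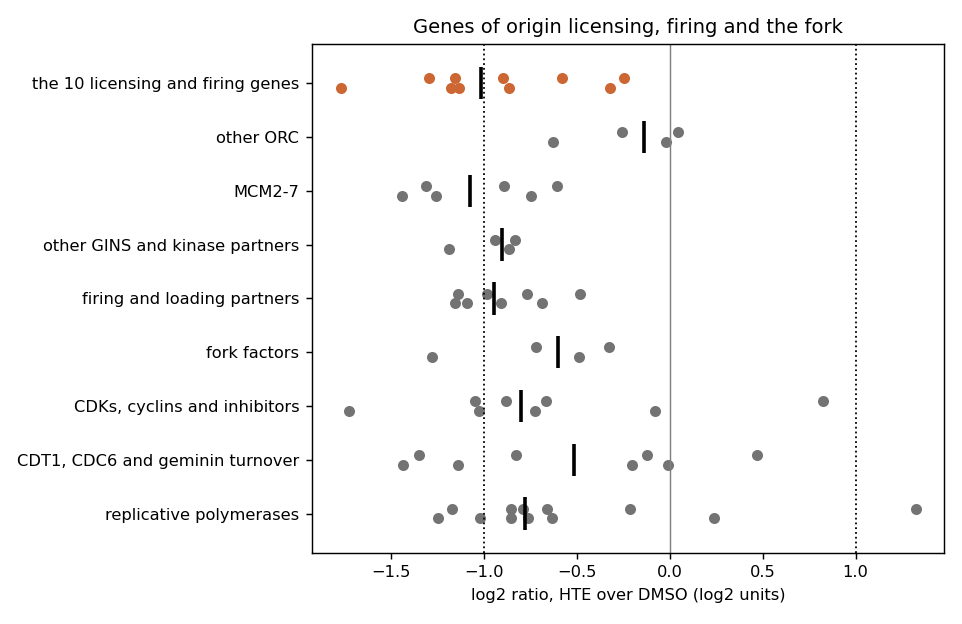
Log2 ratio of HTE over DMSO (x axis, log2 units) of each gene in 9 lists (y axis), with black bars at the list medians, a grey line at 0 and dotted lines at 2-fold. The 10 licensing and firing genes (orange) and MCM2-7 have medians of -1.01 and -1.07, and the other ORC list, with LRWD1, has -0.14.

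Markers of cell cycle phase moved with the 10 genes. The lists were the usual single-cell lists of phase markers, from which any of the 10 genes on them had been left out. Of the 39 S phase markers that remained, all were lower on the HTE array and 18 at least 2-fold. Their median log2 ratio was -0.98, from RRM2 (-2.14) to RPA2 (-0.33). Their summed signal was 679375 on the DMSO array and 343104 on the HTE array, and 12 of the 39 are also in another of the lists. Of 53 measured G2/M markers all were lower at their brightest probe, 24 at least 2-fold, with a median of -0.86. They ranged from MKI67 (-2.27, and up to -1.01 at its other probes) to JPT1 (-0.005, and 0.07 at its dimmer probe). CBX5 (0.16) and CDK1 (0.0) were not lower at their dimmer probes either. The summed signal of the 53 markers was 1138238 on the DMSO array and 664765 on the HTE array. The part of a different mix of cell cycle phases in the lower ratios of the 10 genes was not tested.

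The promoters of the 10 genes were searched for short DNA words. RefSeq windows of 300 bases (GRCh38.p14), from 250 bases before a transcription start to 50 bases after, were searched on both strands for the words of an E2F site, TTTCCCGC, TTTGGCGC, TTTGCCGC, and TTTCGCGC. At least 1 of these words was present for 6 of the 10 genes (CDC6, CDT1, GMNN, GINS1, GINS2, and CDC7) and for 3.99% of 27305 genes with a window. In windows, this is 6 of 14 against 3.31% of 35116. The shorter words TTCCCGC and TTGGCGC, which are contained in the first pair, added ORC1, to 7 of the 10 genes against 11.0% of all genes. The CHR word TTTGAA, known from genes of G2 and mitosis, was in none of the 14 windows and in 15.2% of all windows, and CCAAT was present for 8 of the 10 genes and 39.7% of all genes. ORC6 and CDC45, at least 2-fold lower, had none of the searched E2F words in their windows. GMNN and CDC7, with the smallest differences, had E2F words. That of GMNN lies at -80 from the transcription start, and those of CDC7 at -68 and -34. Another window of CDC7 holds shorter words at -102 and -9. Only the words given were searched, so a gene without one may hold another form of the site. The string tttggcggga, which holds none of the words, is in the windows of CDC6 and CDT1 and in a window of CDC45. In CDT1 it overlaps a shorter word. How often this string occurs in all windows was not counted. A link between the words and the ratios was not tested. The build of the windows is not the hg19 build named for the array design, and they were matched by gene name. A word is a match of letters and was not tested as a binding site.

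The windows of 5 genes with an E2F word and of both ORC genes without one are given from 120 bases before the start to 30 bases from it on, 5′ to 3′ on the strand of the gene, with the E2F words in capitals. Those of GMNN, CDC7, and CDC45 are not printed. The words lie at position 8 of CDC6 and 6 of GINS1, counted from the start, and at -35 of CDT1, -31 of GINS2, and -22 of ORC1. CDT1 has a shorter word at -23 as well.
CDC6 (GRCh38.p14, chr17:40287759-40287908, plus strand): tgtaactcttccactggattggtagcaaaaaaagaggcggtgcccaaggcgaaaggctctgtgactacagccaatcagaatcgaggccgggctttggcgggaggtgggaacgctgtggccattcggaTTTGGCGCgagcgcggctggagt
CDT1 (GRCh38.p14, chr16:88803669-88803818, plus strand): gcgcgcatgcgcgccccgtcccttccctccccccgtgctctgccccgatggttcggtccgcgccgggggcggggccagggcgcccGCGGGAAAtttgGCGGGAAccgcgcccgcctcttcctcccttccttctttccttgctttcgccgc
GINS1 (GRCh38.p14, chr20:25407553-25407702, plus strand): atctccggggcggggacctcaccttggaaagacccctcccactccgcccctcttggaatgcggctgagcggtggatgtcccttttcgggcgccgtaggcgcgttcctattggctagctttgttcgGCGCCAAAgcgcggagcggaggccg
GINS2 (GRCh38.p14, chr16:85688925-85689074, minus strand): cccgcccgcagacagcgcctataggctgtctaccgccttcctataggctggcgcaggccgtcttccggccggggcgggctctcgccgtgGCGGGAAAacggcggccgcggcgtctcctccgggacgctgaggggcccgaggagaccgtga
ORC1 (GRCh38.p14, chr1:52404394-52404543, minus strand): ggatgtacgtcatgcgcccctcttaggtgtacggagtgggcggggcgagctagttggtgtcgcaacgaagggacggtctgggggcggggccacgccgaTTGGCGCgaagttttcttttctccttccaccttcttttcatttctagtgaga
ORC2 (GRCh38.p14, chr2:200963631-200963780, minus strand): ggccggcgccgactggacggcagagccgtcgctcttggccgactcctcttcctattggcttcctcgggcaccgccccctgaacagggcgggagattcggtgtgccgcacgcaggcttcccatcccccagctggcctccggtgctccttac
ORC6 (GRCh38.p14, chr16:46689539-46689688, plus strand): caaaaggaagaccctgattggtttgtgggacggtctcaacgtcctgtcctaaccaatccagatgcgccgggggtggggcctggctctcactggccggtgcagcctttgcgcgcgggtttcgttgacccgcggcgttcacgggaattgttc

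**Figure D5:**
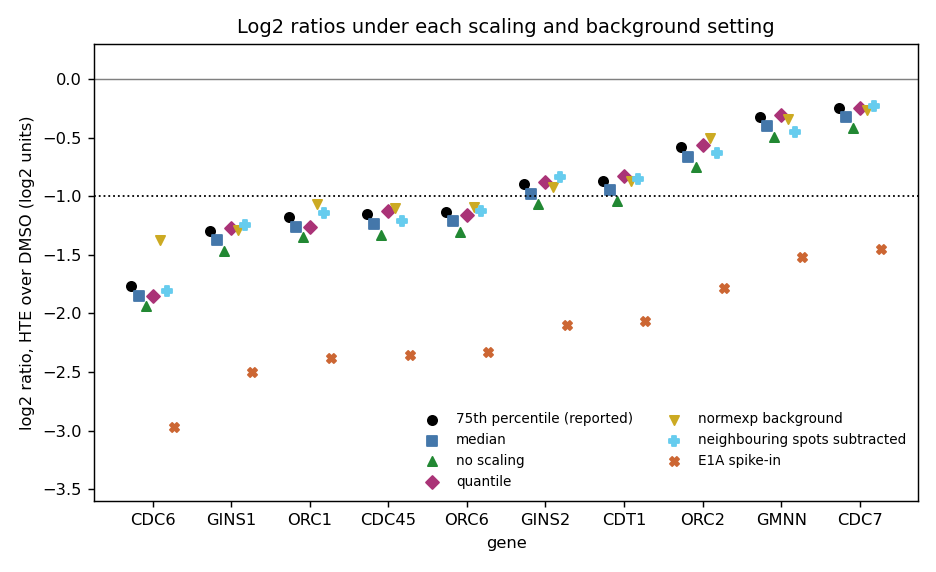
Log2 ratio of HTE over DMSO (y axis, log2 units) of each of the 10 genes (x axis, ordered by ratio), with 1 marker for each scaling or background treatment, a grey line at 0 and a dotted line at 2-fold lower. All markers lie below 0, and those of scaling to the spike-in RNA lie 1.20 below the reported values.

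The direction of the 10 genes did not depend on how the arrays were scaled or corrected. All 110 values of the 10 genes under 11 other settings were below 0. Scaling to the E1A spike-in RNA, added to each sample at labelling and brighter on the HTE array, lowered every ratio by 1.20, so that POLD4 alone of the genes named here stayed above 0. Without any scaling, GINS2 (-1.07) and CDT1 (-1.04) passed 2-fold too, which made 7 of the 10 genes. Subtracting from each spot the median ratio of its neighbours, which removes differences tied to the position on the array, gave -0.45 for GMNN and a median of -0.99 for the 10 genes.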

How the data were processed

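RNA of 1 DMSO-treated and 1 HTE-treated HepG2 culture was labelled with Cy3 and hybridised to Agilent SurePrint G3 human arrays, 1 array per group. The authors deposited the Agilent Feature Extraction output of each array (version 11.5.1.1 per the file headers, 10.7 per the submitters' processing notes). The deposited intensity values, per the file headers, are the processed signal, background-subtracted and detrended by that software and not scaled between arrays, with its error estimate, and the median signal and background of each spot. Array design build hg19 is named in the headers.

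Control spots were left out, as were outlier spots (440 for DMSO, 459 for HTE), log2 was taken, the 75th percentile of the non-control spots was subtracted, and replicate spots were averaged. To be kept, a probe needed at least 0.5 of its spots well above background on either array. Genes dim on 1 array (2752) were given a bound, the brighter value over the lowest signal well above background there or its own signal, whichever was higher, and a bound under 1-fold was set to 0. Probes were named through unversioned RefSeq accessions in the gene table of GRCh38.p14 (28174 of 50599 probes), and the brightest probe stood for its gene. The cutoff of 2-fold follows the methods of the study. All values are without a test, since there is 1 array per group, and their number limits the precision.

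The genes of the report and the lists were chosen with earlier results of these data known. The genes named are the 10 genes and, of each list, the highest and lowest ratio and those past 2-fold, but for the S phase, G2/M and cell markers the highest and lowest only (of the other cell markers also those without a probe above background). Outside this rule, partners of the 10 genes (GINS4, DBF4, ORC3, LRWD1, CUL4A, DDB1) and the rest of the E2F and RB genes were named after their values were seen. The same holds for CBX5 and CDK1, named for their dimmer probes. The promoter words were chosen after the ratios had been seen. 1 listed gene is not reported here. The lists of E2F and RB genes and of cell markers were described in the same way.

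The alternatives were scaling to the median, none, quantile normalization, scaling to the median ratio of 10 E1A spike-in probes, normexp background correction (limma, offset 50, on the median signal), 3 treatments of dim probes, outlier spots kept, the mean of a gene's probes, subtraction of the median ratio of neighbouring spots (a window of 9 by 9), and cutoffs of 1.5-fold and 3-fold. The steps were tested on simulated data. Python 3.11.15 (pandas 2.3.3, numpy 2.4.6, matplotlib 3.10.9) was used, with R 4.3.3 and limma 3.58.1 for normexp.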

Additional observations from a re-analysis of the deposited data

How the results depend on the processing

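No paired analysis was possible because each group has 1 array. All 10 genes were lower in each of the 11 settings of scaling, background, dim probes, outlier spots, several probes and position. The settings of dim probes and outlier spots could not change the 10 genes. The number at least 2-fold lower was 5 in the 11 settings, except 7 with no scaling and 10 with spike-in scaling. With a 1.5-fold cutoff 7 of the 10 genes were counted and with a 3-fold cutoff 1, CDC6.

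The median log2 ratio of the 10 genes was -1.01 as reported, -1.10 with scaling to the median, -1.19 with no scaling, -2.22 with scaling to the E1A spike-in RNA, and between -1.01 and -0.99 in the other settings, so that it lies at the 2-fold cutoff and falls on either side of it. The spike-in probes had unscaled log2 ratios from 0.12 to 1.56 (median 1.03), and that scaling lowered every ratio by 1.20 and the median of all genes by 1.19. No scaling lowered the median of all genes by 0.16.

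Of all genes, 720 were at least 2-fold lower and 1248 at least 2-fold higher. The counts of lower and higher genes were 1209 and 883 with no scaling, 15813 and 147 with spike-in scaling, 468 and 825 with normexp background correction, 1868 and 2390 with no filter on dim probes, 1320 and 1341 with dim probes at their own value, 2505 and 2953 with a 1.5-fold cutoff, and 129 and 422 with a 3-fold cutoff. The cause was not tested, apart from the common shift by which a scaling works. Of the 10 genes, CDC6 had the largest difference between the reported value and that with normexp background correction, -1.77 against -1.38. Signal over background limits the dim genes, and 2752 of all genes, none of them among the 10, rest on a bound.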

Other observations

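The E2F and RB family, the transcription factors and pocket proteins that act on the promoters of licensing genes, ranged from a log2 ratio of -2.01 to 0.20. E2F8 (log2 ratio of -2.01), RBL1 (-1.82), E2F1 (-1.59), and E2F7 (-1.37) were at least 2-fold lower on the HTE array, and the other 7 genes of the list were not. E2F1 is an activator, whereas E2F7 and E2F8 repress the same promoters and RBL1 encodes the pocket protein p107. E2F2, also an activator, lay between (-0.74). E2F3 (-0.26), RBL2 (-0.21), E2F4 (-0.21), RB1 (-0.11), and E2F6 (-0.04, and up to 0.24 among its 3 probes) followed. By the brightest probe E2F5 was the highest (0.20, and below 0 with spike-in scaling). RBL1 had 2 probes, at -1.82 and -2.01. The list median was -0.26, and 10 of the 11 genes were lower at their brightest probe.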
